A study of Mus musculus with 2 samples.

Results

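Ribosomal proteins and translation factors form the machinery that reads mRNA into protein. They were taken here as the probe sets annotated to exactly 1 gene symbol that starts with Rpl, Rps, Eif or Eef and goes on with a number, with the kinase genes named Rps6k and Eif2ak left out. This gave 106 probe sets of 80 genes, out of 10276 probe sets and 8220 genes named by 1 symbol on the array. They comprised 45 probe sets of ribosomal proteins (22 of the large and 23 of the small subunit), 46 of initiation factors, 8 of elongation factors and 7 of proteins that bind or modify a factor. These last are called regulators here.

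The cells were macrophages drawn into the peritoneum of mice with thioglycollate, a sterile irritant, and purified by adherence. One group came from Pac1-/- mice, which lack the phosphatase PAC1 encoded by Dusp2, and the other from their age-matched Pac1+/+ littermates. Both groups received 100 ng/ml lipopolysaccharide (LPS) for 6 hours, so every value is a level after LPS. Each genotype was measured on 1 Affymetrix array, no difference has a replicate check, and all differences are given without a test. The labels do not state the age of the mice, how many stood behind each array or how much of the gene was deleted.

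A ribosome has a small subunit, which binds the mRNA and decodes it, and a large subunit, which joins the amino acids. Initiation factors bring the initiator tRNA and the small subunit to the mRNA cap and find the start codon, and elongation factors deliver tRNAs and move the ribosome along. In macrophages exposed to LPS, kinase pathways downstream of the Toll-like receptor act on several of these factors, among them the cap-binding protein eIF4E and the proteins that hold it back. Many mRNAs of ribosomal proteins and elongation factors begin with a run of C and T letters, the TOP motif, through which their translation is adjusted to growth signals.

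The start sites of members are shown for C and T runs near them, a feature that the choice by symbol did not use. Such a run may lie wholly before the listed start, as in Rpl10a and Rps27l, so the shares below are not shares of TOP mRNAs. Of the 35 ribosomal protein genes, 28 had a listed start in RefSeq (GRCm38.p6), and of the 40 factor genes, 34. A run of at least 7 letters that begins with C and holds only C or T lay within 15 bases of a listed start in 14 of those 28 ribosomal protein genes (50%). It did so in 9 of 34 factor genes (26.5%) and in 4421 of all 27025 genes with a listed start (16.4%). A gene with several listed starts was counted when any of them had the run, so more starts gave more chances. The 27025 genes were not limited to those on the array. Each window below runs from 15 bases before the listed start to 15 bases into the first exon, 5′ to 3′ on the gene's strand, and capitals mark the longest such run. The first 4 windows are of ribosomal protein genes, the next 4 of factor genes with a run, and the last 3 of members without one.
Rpl7a, chr2:26910792-26910821, + strand: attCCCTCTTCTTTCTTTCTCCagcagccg
Rps18, chr17:33955651-33955680, - strand: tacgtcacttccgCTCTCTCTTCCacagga
Rps10, chr17:27635230-27635259, - strand: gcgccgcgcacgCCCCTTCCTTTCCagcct
Rps27, chr3:90213634-90213663, - strand: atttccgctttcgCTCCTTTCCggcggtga
Eef1a1, chr9:78481710-78481739, - strand: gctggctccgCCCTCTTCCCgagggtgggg
Eif2s3x, chrX:94212637-94212666, - strand: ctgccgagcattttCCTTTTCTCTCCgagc
Eif3f, chr7:108934400-108934429, + strand: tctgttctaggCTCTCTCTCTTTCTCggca
Eif2b5, chr16:20498802-20498831, + strand: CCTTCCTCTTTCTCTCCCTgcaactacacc
Rpl41, chr10:128549154-128549183, - strand: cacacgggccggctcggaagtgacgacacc
Eif3a, chr19:60790679-60790708, - strand: cggggctcgggcggcggcgctgccgccgcg
Eif5b, chr1:37997995-37998024, + strand: ggcgcctgggttcccacctggccggcggct
A listed start is that of 1 reference transcript and can miss the start that the cells use, so a window without the run says only that these letters are not in it. In the wider window of 300 bases, 250 before and 50 after the start, the letters CCGGAAG stood on either strand in 12 of 28 ribosomal protein genes (42.9%), in 11 of 34 factor genes (32.4%) and in 9.93% of all genes. These letters are a sequence recognised by ETS transcription factors such as GABP.

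The targeted gene served as a partial check of the labels. Dusp2 gave 76.8 with knockout RNA and 333 with wild-type RNA, a log2 ratio of -2.12. Signals are MAS5 intensities in arbitrary units, and both arrays were brought to the same trimmed mean (medians of 38 and 35). All 11 macrophage markers on the array, Itgam and Cd68 among them, were above the floor on both arrays. Their signals summed to 35021 (knockout) and 32014 (wild type). Of the 11, 8 were higher in the knockout and 3 lower, with Msr1 lowest at 1366 against 2171 (-0.67). Among markers of other cells, 4 of 8 for neutrophils were above the floor on at least 1 array (sums 818 and 910, knockout first), for B cells 5 of 5 (329 and 310), for T and NK cells 1 of 6 (32.8 and 74.5), for mast cells and eosinophils 3 of 6 (335 and 152) and for stromal and mesothelial cells 5 of 7 (767 and 993). Of the 5 B cell markers 4 were lower in the knockout, and Cd79a was higher (100.2 against 20.7, the latter under the floor). The part of these other cells in the differences below was not tested. Control probe sets at the 3′ and 5′ ends had signal ratios of 2.42 and 2.54 for actin, and 1.62 and 1.81 for Gapdh, again knockout first.

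The mRNAs of ribosomal proteins were at nearly the same level in Pac1 knockout and wild-type macrophages, and those of the translation factors varied more widely and had a slightly lower median in the knockout, which the processing without a floor did not show. Ribosomal proteins had a median log2 ratio (knockout over wild type) of 0.03 and factors one of -0.14, against 0.02 for all eligible probe sets. Among the factors, the median was -0.14 for initiation factors (34 eligible probe sets) and 0.06 for elongation factors (5). A probe set was eligible when at least 1 signal was above a floor, the median of all signals (36.4), which held for 71 of the 106 members and for 5898 of the 10276 probe sets. Of the 71, 67 were above the floor on both arrays. Where 1 signal lay under the floor, the fold was taken from the floor and reads "at least".

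None of the 71 eligible members (0) was 2-fold apart between the arrays, whereas 2.29% of all eligible probe sets were. At a limit of 1.5-fold, 5 of the 71 (7.04%) were apart, against 12.4% of all eligible probe sets. Of the 5, 2 were higher in the knockout and 3 lower, where the shares over all eligible probe sets were 6.53% and 5.85%. The higher ones were probe sets of Eif3e and Eif4a1, and the lower ones of Eif3a, Rps28 and Eif4ebp2. The brightest signal among the 5 was 162.5. When the floor was raised to the 75th percentile of all signals (129.9), 0 of the 52 members left were 1.5-fold apart, against 4.65% of all probe sets above it. When it was lowered to the 25th percentile, 5 members were 2-fold apart, and with no floor 10 were, while the shares of all probe sets grew to 12.2% and 20.4%.

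**Figure D1:**
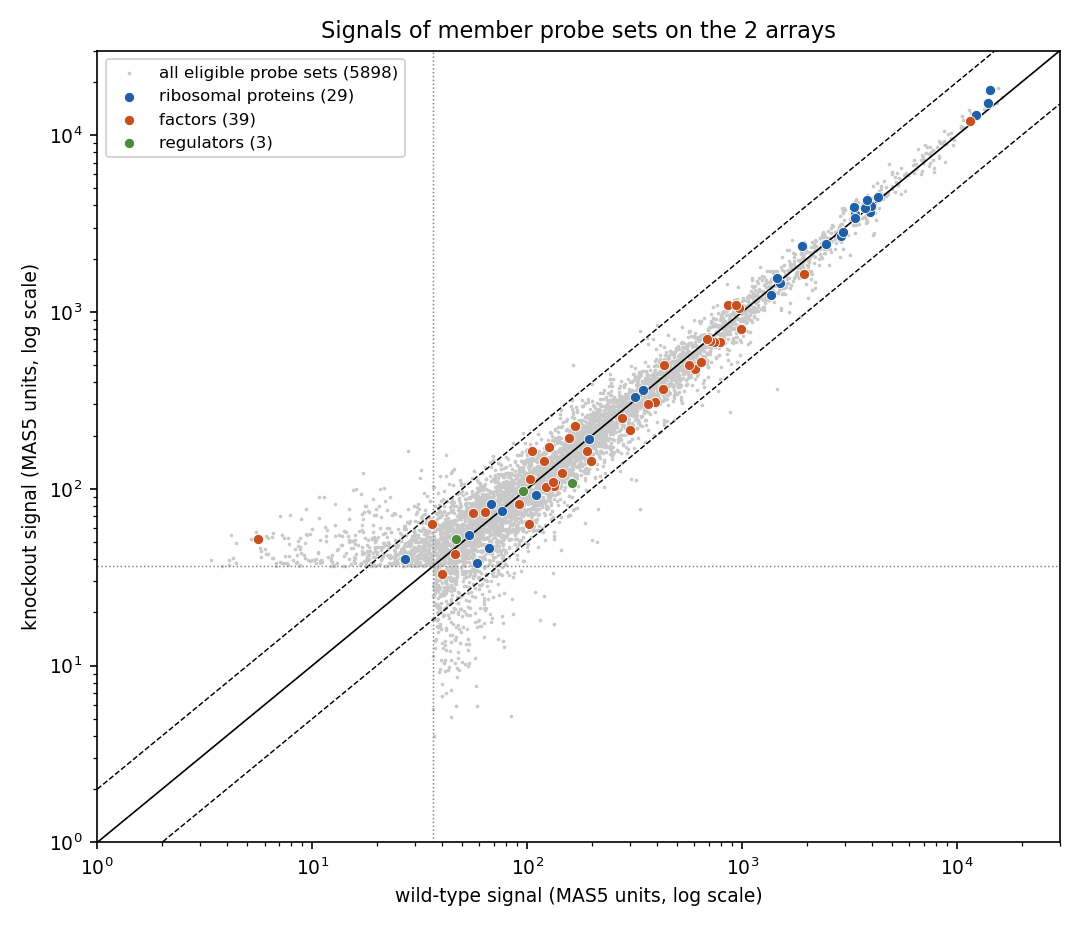
The plot sets the knockout signal (vertical axis) against the wild-type signal (horizontal axis), in MAS5 units on log scales, for all 5898 eligible probe sets (grey) and for ribosomal proteins (29), factors (39) and regulators (3); solid line equal signals, dashed lines 2-fold, dotted lines the floor of 36.4. The points of ribosomal proteins follow the line of equality closely at high signals, and the 1 factor beyond a dashed line, Eif2b5 at 51.9 against 5.6, has its wild-type signal below the floor.

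Ribosomal proteins were the narrower group. Their interquartile range of log2 ratios ran from -0.05 to 0.09, a width of 0.14, while that of the factors ran from -0.26 to 0.21, a width of 0.47, and that of all eligible probe sets was 0.43 wide. Of 29 eligible ribosomal protein probe sets 23 (79.3%) lay under 1.2-fold apart, against 21 of 39 factor probe sets (53.8%) and 57.6% of all eligible ones. Signal level moved with this difference, since 18 of the 29 ribosomal protein probe sets had more than 1000 on both arrays and only 2 of the 39 factor probe sets did. Among probe sets above the 75th percentile on both arrays, the width was 0.11 for the 21 of ribosomal proteins, 0.36 for the 23 of factors and 0.32 for all 2608. The remaining difference in signal level within that range was not tested.

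**Figure D2:**
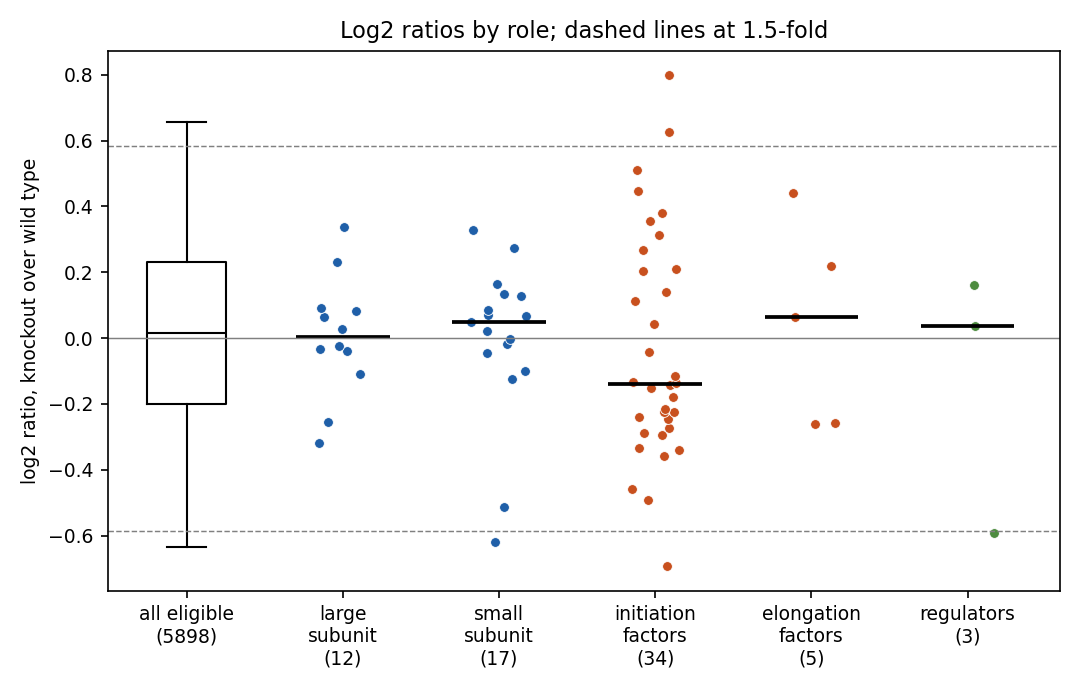
Log2 ratios (vertical axis, knockout over wild type) are shown for each eligible probe set by role, with a bar at the median, beside a box for all 5898 eligible probe sets (quartiles, whiskers from the 5th to the 95th percentile). Most points of both subunits lie near 0, while the 34 initiation factor points spread from -0.69 to 0.80 with a median of -0.14.

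The large subunit had 12 eligible probe sets, 6 above and 6 below 0, with a median of 0.00. Rpl41, which encodes a very short and basic protein, had the highest ratio, from 18057 (knockout) against 14278 (wild type), a log2 ratio of 0.34 (1.26-fold). Its probe set carries the suffix for a family of similar sequences. Rpl19 followed with 3899 against 3325 (0.23), and Rpl10a was at 1553 against 1458 (0.09). Ratios near 0 belonged to Rpl8 (3558 against 3364), Rpl7 (4453 against 4261), Rpl6 (2412 against 2450) and Rpl37a (1462 against 1503). Rpl7a, with the longest C and T run shown for a ribosomal protein above, was at 2677 against 2887 (-0.11).

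The lowest ratios of the large subunit came from dimmer signals. Rpl13a, whose protein also takes part in silencing inflammatory mRNAs in interferon-treated human monocytic cells, was at 107 (knockout) against 134 (wild type) (-0.32). Rpl24 was at 92.2 against 110 (-0.26). Rpl7l1, a paralogue of Rpl7, was at 74.6 against 76.3 (-0.03).

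The small subunit had 17 eligible probe sets, 10 above and 7 below 0, with a median of 0.05. Rps10 had the highest ratio, at 2373 (knockout) against 1891 (wild type) (0.33, 1.25-fold). Rps4l was at 81.8 against 67.6 (0.28), and the X-linked Rps4x was at 4278 against 3817 (0.16) in its brighter probe set. Rps3, also a DNA repair protein and a partner of NF-kB, was at 3963 against 3970. Rps18 (3407 against 3358), Rps7 (2842 against 2936) and Rps27 (191 against 193) were also close to the wild type. Rps3a1 was at 3662 against 3927 (-0.10), and Rps19, the gene mutated in Diamond-Blackfan anaemia, was at 1244 against 1357 (-0.12). Among the 18 ribosomal protein probe sets with more than 1000 on both arrays, Rps19 had the lowest ratio and Rpl41 the highest.

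The low end of the small subunit was dim. A probe set of Rps28 was at 38.1 (knockout) against 58.5 (wild type) (-0.62, 1.54-fold lower), the only ribosomal protein probe set past 1.5-fold. The other probe sets of Rps28 went against it, at 3858 against 3733 (0.05) and 12986 against 12232 (0.09). Rps29 was at 46.3 against 66.1 (-0.51), from a single probe set not far above the floor. Rps27l, a p53-induced paralogue of Rps27, was at 363 against 346 (0.07).

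**Figure D3:**
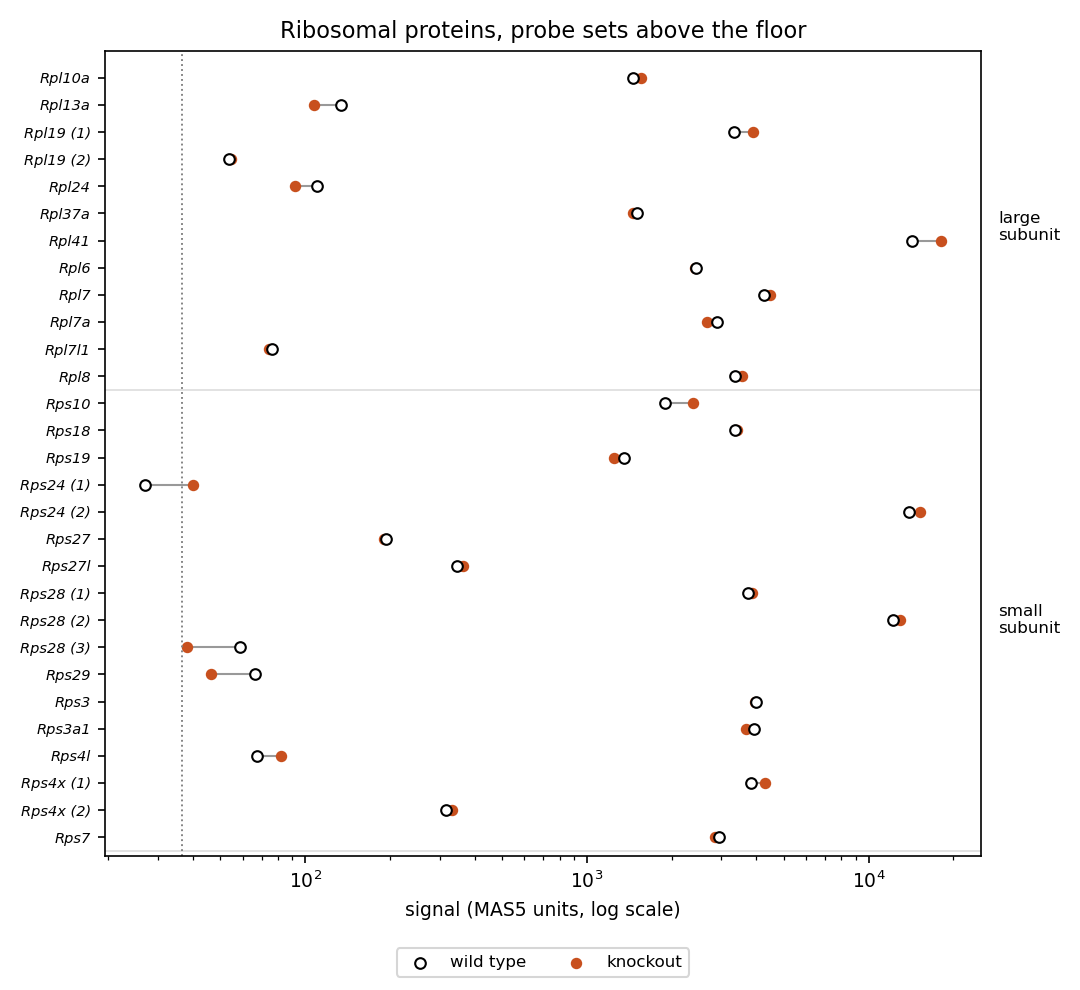
Knockout (filled) and wild-type (open) signals in MAS5 units on a log scale are joined by a line for each of the 29 eligible ribosomal protein probe sets, with numbers in parentheses for several probe sets of a gene and a dotted line at the floor of 36.4. The symbols overlap for most, and the wider gaps, such as those of Rps28 (3) and Rps29, sit near the floor, with Rpl41 and Rps10 as the wider gaps at high signals.

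Some ribosomal proteins could not be read. Of the 45 probe sets 16 were below the floor on both arrays, which left 11 of 35 genes without a value under their symbol alone (Rpl22, Rpl32, Rpl35a, Rpl38, Rpl39, Rpl39l, Rps13, Rps14, Rps15, Rps20 and Rps25). Of these, Rps25 was also named by a probe set with several symbols, at 149.5 (knockout) against 212.7 (wild type), a log2 ratio of -0.51. Whether the low signals reflect the probe sets or the mRNAs was not tested. For Rpl7, 1 probe set gave 4453 and 4261 and the other 4.4 and 2.6, knockout first. For Rps24, 1 gave 15192 and 13897 and the other 39.9 and 27.0. The brighter Rps24 probe set carries a suffix for relaxed probe selection, and the annotation lists for it the same source mRNA as for the Rpl7 probe set, so which of the 2 mRNAs it reads is uncertain.

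Another 33 probe sets named a ribosomal protein or factor together with pseudogenes or other genes, and were left out by the choice of 1 symbol. Of these 29 were eligible, with a median log2 ratio of 0.00 and 25 of them under 1.2-fold apart. Rps6, the substrate of the S6 kinases, was among them at 3476 against 3526. Of the 29, 2 (6.90%) were 1.5-fold apart, against 12.4% of all eligible probe sets, and both were named after their values were seen. That of Rpl29 was at 130 (knockout) against 6.8 (wild type), at least 3.57-fold higher, and was the 1 that passed 2-fold. Its suffix was read as possible cross-hybridisation, and its wild-type signal lay under the floor. The other was 1 of the probe sets of Rpl12, at 73.3 against 113.6 (-0.63, 1.55-fold lower).

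Initiation factors had the widest range of ratios. Of 34 eligible probe sets, 13 were above and 21 below 0, with a median of -0.14. Of all 5898 eligible probe sets, 3087 were above and 2811 below 0. The subunits of eIF3, the scaffold that holds the small subunit in the initiation complex, went both ways, with 5 above and 5 below 0 among 10 eligible probe sets. Eif3a, the largest core subunit, was the lowest of all members, at 63.1 (knockout) against 102 (wild type) (-0.69, 1.62-fold lower). Eif3e was the highest of all members, at least 1.74-fold higher, since it had 63.3 in the knockout and 36.0, just under the floor, in the wild type. A second Eif3e probe set was too dim on both arrays.

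The other eIF3 subunits lay between these. Eif3m was at 311 against 392 (-0.33), Eif3j1 at 804 against 983 (-0.29) and Eif3b, an RNA-binding core subunit, at 672 against 786 (-0.23). Eif3d, which can itself bind the cap of some mRNAs, was at 686 against 707 (-0.04), and Eif3k was at 707 against 686 (0.04). Eif3c was at 1050 against 971 (0.11), Eif3l at 1093 against 855 (0.36) and Eif3f at 73.0 against 56.1 (0.38). The median over the eIF3 probe sets was -0.00, with 5 of 10 below 0, and with both arrays brought to the same median it was -0.12, with 7 below 0.

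The eIF4 group binds the mRNA cap and unwinds the leader. Of its 8 eligible probe sets 6 were below 0, with a median of -0.16, where 2811 of all 5898 eligible probe sets were below 0. Eif4g2, a scaffold related to eIF4G that works without the cap-binding protein, was at 215 (knockout) against 302 (wild type) (-0.49, 1.41-fold lower). Eif4g3 was at 123 against 146 (-0.24), the helicase gene Eif4a2 at 501 against 567 (-0.18) and the helicase cofactor Eif4b at 251 against 275 (-0.13). Eif4e, the cap-binding protein itself, was dim at 42.5 against 46.0 (-0.11), and Eif4e2, its relative that represses translation, was at 144 against 120 (0.27).

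The helicase gene Eif4a1 gave opposite answers in its 2 probe sets. One was at 163 (knockout) against 105 (wild type) (0.62, 1.54-fold higher), and the brighter was at 368 against 430 (-0.22). Both carry suffixes that mark possible cross-hybridisation. Without such probe sets Eif4a1 had no value.

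Among proteins that hold eIF4E back, Eif4ebp1 was at 97.6 against 95.1 (0.04) and Eif4ebp2 at 108 against 162 (-0.59, 1.51-fold lower). The other 2 probe sets of Eif4ebp2 were below the floor on both arrays. Eef1akmt1, a methyltransferase for a lysine of eEF1A, was at 52.3 against 46.8 (0.16). Eef2k, the kinase that inactivates eEF2, and Eif4enif1, the nuclear importer of eIF4E, were below the floor on both arrays.

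The factor eIF2 carries the initiator tRNA, and eIF2B recharges it with GTP, the step that stress kinases block. Of eIF2, the gamma subunit gene Eif2s3x was measured, at 1641 (knockout) against 1946 (wild type) (-0.25), while Eif2s2 and the Y-linked Eif2s3y were below the floor. Of the eIF2B subunits, Eif2b1 was at 164 against 191 (-0.22), Eif2b4 at 114 against 103 (0.14) and Eif2b2 at 173 against 127 (0.45). The catalytic subunit gene Eif2b5 had 2 probe sets at like levels, 104 against 133 (-0.36) and 102 against 123 (-0.27). The remaining probe set, at 51.9 against 5.6, was at least 1.43-fold higher in the knockout and so opposed them. Eif2a, a separate factor for non-standard starts, was at 82.1 against 91.2 (-0.15), and Eif2d was at 73.7 against 63.7 (0.21).

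The remaining initiation factors act in scanning and in joining the subunits. Eif5b, the GTPase of subunit joining, was at 144 against 198 (-0.46), and a second one was too dim to be read. Eif6, which keeps the large subunit from joining too early, was at 475 against 601 (-0.34). Eif5, the GTPase activator of eIF2, was at 32.8 against 40.0 and thus at the floor, and Eif5a and Eif4h were below it on both arrays. Eif1a had a pair of bright probe sets that disagreed, at 524 against 643 (-0.29) and 500 against 434 (0.20). Its X-linked relative Eif1ax was at 194 against 156 (0.31), and Eif1b was at 673 against 743 (-0.14).

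**Figure D4:**
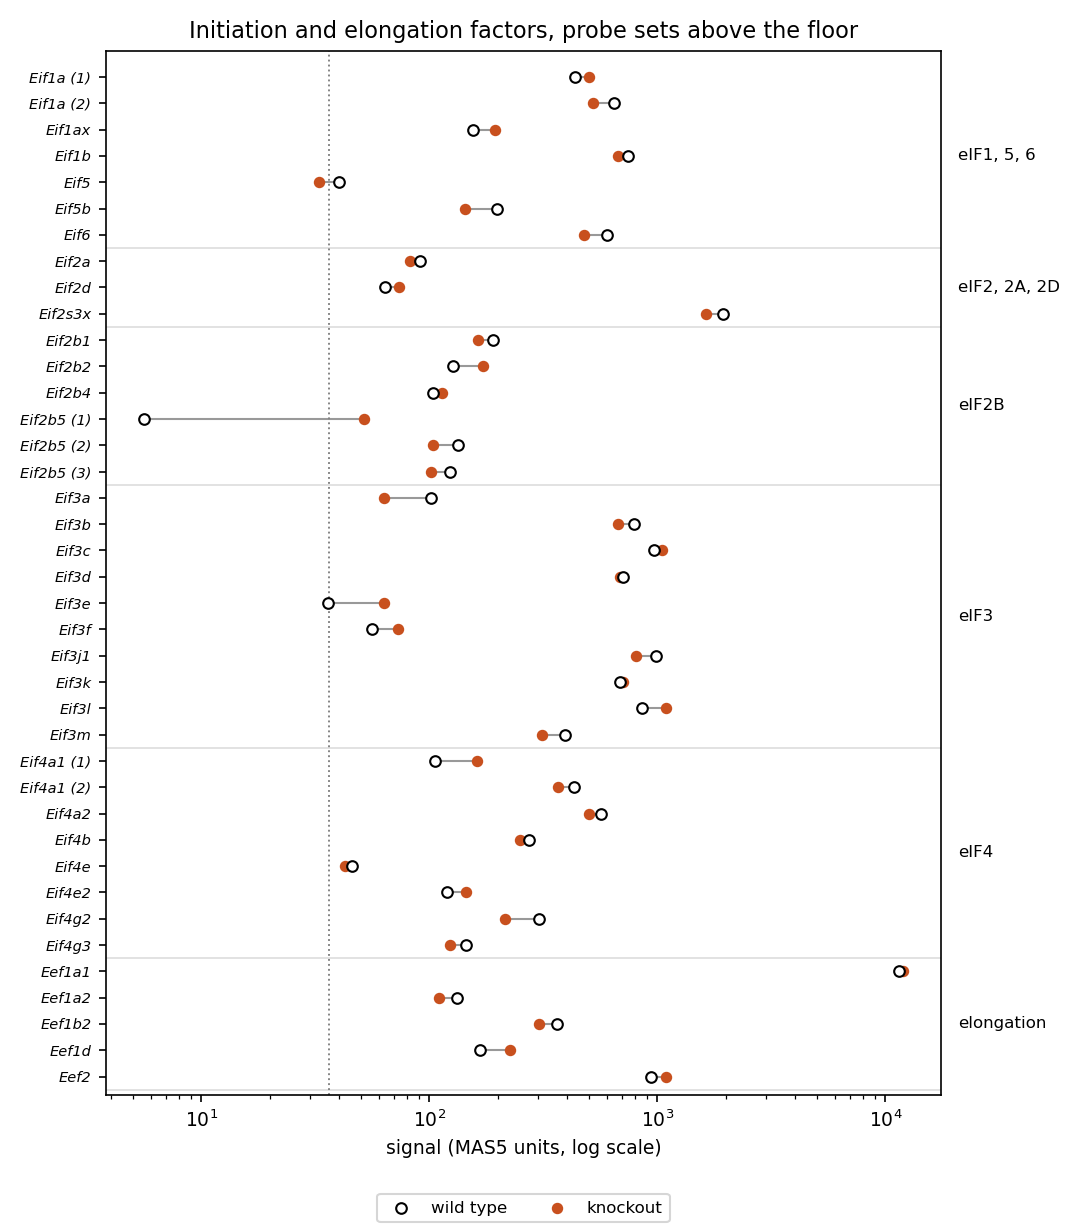
Knockout (filled) and wild-type (open) signals in MAS5 units on a log scale are joined for each of the 39 eligible probe sets of initiation and elongation factors, ordered by complex, with a dotted line at the floor of 36.4. Within eIF3, eIF2B and eIF4 the filled symbols lie on either side of the open ones, and the widest gap, Eif2b5 (1), has its wild-type signal of 5.6 below the floor.

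Elongation factors had 5 eligible probe sets, 3 above and 2 below 0, with a median of 0.06. Eef1a1, which brings tRNAs to the ribosome and is one of the most abundant proteins of a cell, was at 11949 (knockout) against 11429 (wild type) (0.06). Eef2, the translocase, was at 1093 against 940 (0.22). The genes of the exchange factors that reload eEF1A went apart, with Eef1d at 225 against 166 (0.44) and Eef1b2 at 303 against 363 (-0.26). Eef1a2, the form of nerve and muscle, was at 110 against 132 (-0.26), and Eef1g was below the floor.

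Probe sets of the same gene did not always agree. Of the 7 member genes with several eligible probe sets, 3 (Rps28, Eif4a1 and Eif2b5) had log2 ratios that differed by more than 0.58, and the median difference was 0.50. Eif1a followed with 0.50, while those of Rps24, Rps4x and Rpl19 differed by at most 0.20. For Rps24 this closeness depended on the floor, to which the wild-type signal of the dimmer probe set was raised. The log2 ratio of that probe set was 0.13 in the main setting and 0.56 with no floor. The brighter Rps24 probe set is the one that may read Rpl7 mRNA. Probe sets of the same gene share the same 2 RNA samples and are not replicates.

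The factors' median lay below that of all eligible probe sets in every setting, but the size of this gap depended on the floor. Factors minus all eligible was -0.15 in the main setting, -0.07 with the floor at the 25th percentile and -0.0087 with no floor. The difference between the medians of ribosomal proteins and factors was 0.16 on the log2 scale. It was 0.07 with the floor at the 25th percentile, where the factors' median was -0.04, and 0.10 with the mean over the probe sets of each gene. When arrays were scaled to the same median, that of all eligible probe sets moved from 0.02 to -0.10, that of ribosomal proteins to -0.09 and that of factors to -0.25. Across all settings the median of ribosomal proteins lay between -0.09 and 0.06, so its sign is not determined. The medians of the large subunit, the small subunit and the elongation factors likewise turned below 0 with that scaling and with quantile normalization. That of the large subunit was also below 0 after loess (-0.04), and that of the 3 regulators was below 0 (-0.08) with equal medians, whereas that of initiation factors stayed below 0 under every scaling. With no floor, which brought in all 106 members, the factors' median was 0.03, the ribosomal proteins' 0.02, and the difference turned to -0.01. Probe sets whose gene had the C and T run near its start had a median of 0.05 in ribosomal proteins (12 probe sets) and -0.03 in factors (10), and those without it -0.02 (13) and -0.14 (23). The ranges overlapped widely. In ribosomal proteins they ran from -0.32 to 0.33 with the run and from -0.62 to 0.34 without it. In factors they ran from -0.36 to 0.51 and from -0.69 to 0.62. The 10 factor probe sets with the run include those of Eif2b5, which disagree. A link between the run and the ratio was not tested.

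**Figure D5:**
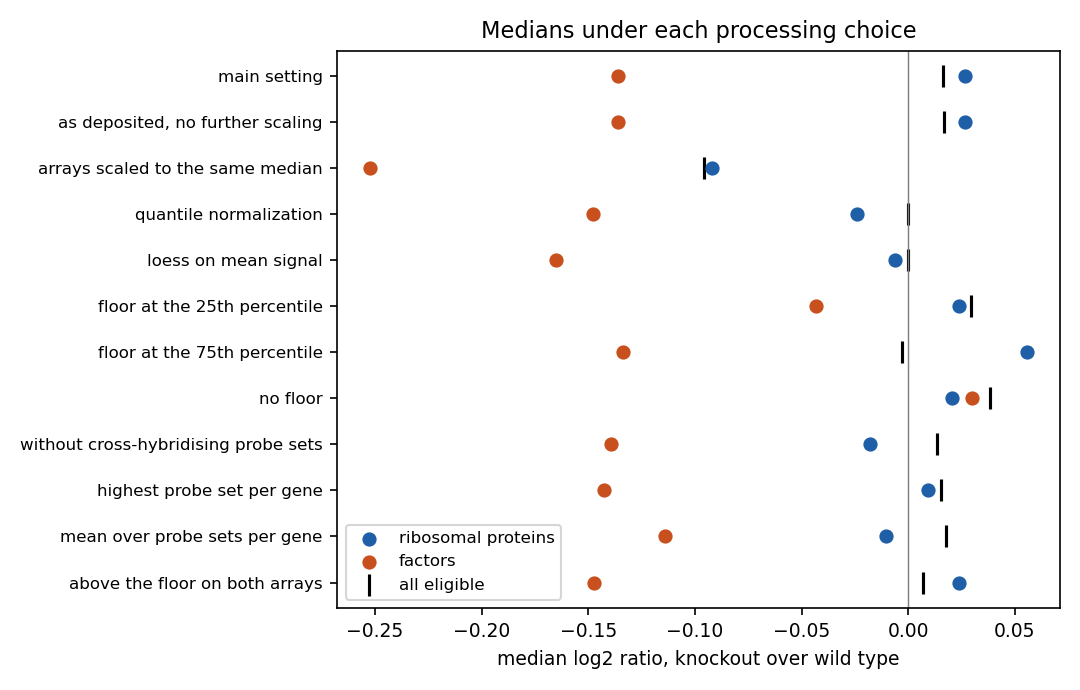
Median log2 ratio of knockout over wild type (horizontal axis) for ribosomal proteins, factors and all eligible probe sets under the main setting and 11 other choices of scaling, floor and probe sets. The factors' median is the lowest of the 3 in every setting shown except the one with no floor, where it is 0.03 and that of ribosomal proteins 0.02.

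Other genes of the translation pathway were read by gene, each from its brightest probe set, against 5122 eligible genes with a median of 0.02. Of the 5122, 2673 were above and 2449 below 0. Among them 2.3% were 2-fold and 12.1% 1.5-fold apart, with 326 genes 1.5-fold higher and 293 lower in the knockout. Of the lists, ribosome biogenesis had the lowest median, -0.26, with 15 of 21 genes below 0 and 2 genes 1.5-fold lower (9.52%). These were Ncl, which encodes nucleolin, at 486 against 794 (-0.71), and Polr1a, the large subunit of RNA polymerase I, at 57.6 against 87.1 (-0.60). Mitochondrial ribosomal proteins had 33 of 54 above 0 and a median of 0.09, which became -0.03 when the arrays were brought to an equal median, and 6 genes were 1.5-fold apart. One of these was past 2-fold, Mrpl46, at least 2.07-fold higher, with 75.5 in the knockout and 22.3, under the floor, in the wild type.

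The cytosolic aminoacyl-tRNA synthetases and their scaffold had 12 of 19 below 0, a median of -0.09 and 2 genes 1.5-fold higher, Yars at 155 against 99.7 (0.64) and Sars at 117 against 77.2 (0.60). Their lowest member was Farsb (-0.53). Translation kinases, cap regulators and poly(A)-binding proteins had 7 of 14 on either side of 0 and a median of 0.01, which turned below 0 under 3 of the other scalings, with Rps6kb2, a kinase of ribosomal protein S6, at 44.3 against 78.9 (-0.83) as the only one 1.5-fold apart and Mknk2 (0.51) highest. Termination and recycling factors had 2 above and 2 below 0, between Abce1 (-0.28) and Gspt2 (0.31). The ribosomal proteins outside the choice by symbol were measured for 2 genes, Rplp0 (0.13) and Rpsa (0.28).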

How the data were processed

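Mice received 2 ml of 3% thioglycollate 4 days before lavage, per the labels' protocols, the cells were 92 to 95% positive for Mac-1, and 500 to 1000 ng of RNA was copied from a poly(T) primer and labelled with biotin. The authors deposited 1 intensity per probe set and array, computed with MAS5 per the submitters' processing notes; version and settings are not given in those notes. Detection calls were not used. Here both arrays were scaled to the same 2% trimmed mean (factors of 1.00), raised to a floor at the median signal (36.4) and compared as a log2 ratio. Probe sets were named through the platform annotation, whose Entrez identifiers matched a reference table for all 106 members, with 0 symbols changed. Differences in signal between probe sets were used to describe brightness and not to compare amounts of mRNA between genes. Suffixes such as _f_at, _r_at, _s_at, _g_at and _i_at were read as possible cross-hybridisation (13 of 71 eligible members).

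Named were the members 1.5-fold apart, the 3 highest and 3 lowest of each role, genes fixed for their function, and genes whose probe sets differed by over 0.58. Others are named to complete a complex or role. Of the function genes, Eif1, Eif2s1, Eif4g1 and Rps6 had no probe set with their symbol alone. The members and lists were chosen with earlier results of these data known. Precision is limited by having 1 array of each genotype, and no test was made. Scaling, floor, probe set choice and probe sets per gene were varied. Calculations used Python 3.11.15, pandas 2.3.3 and statsmodels 0.14.6, and were tested on simulated arrays with known ratios. The known ratios were placed only on probe sets well above the floor, so dim signals were not covered. The mean over probe sets per gene was not covered either.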

Additional observations from a re-analysis of the deposited data

How the results depend on the processing

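No paired analysis was possible because each genotype had 1 array. Values are called moved here when they shifted by more than 0.1 (log2), or by more than 1.5 times for counts. The count of members 2-fold apart was 0 except with a floor at the 25th percentile (5 members) and with no floor (10). Members 1.5-fold or more higher and lower numbered 2 and 3. They numbered 1 and 5 of 71 when both arrays had the same median (8.45% together, against 13.5% of all eligible probe sets), 9 and 10 of 98 with the floor at the 25th percentile (19.4% against 27.2%), 0 and 0 of 52 with the floor at the 75th (against 4.65%), and 15 and 10 of 106 with no floor (23.6% against 34.8%). The higher count was 1 without cross-hybridising probe sets, with the highest probe set per gene, with the mean over probe sets per gene, and, chosen after seeing the data, with both signals above the floor. When both arrays had the same median, the median log2 ratio of ribosomal proteins was -0.092 and that of factors -0.25, while that of all eligible probe sets was -0.096. With no floor the factors' median was 0.030 and the difference between ribosomal proteins and factors -0.0092. That difference was 0.067 with the floor at the 25th percentile and 0.104 with the mean over probe sets per gene. Of the 71 eligible members 54 kept their sign wherever they had a value, while the other 17 changed sign under at least 1 alternative. All 5 probe sets past 1.5-fold were among those that kept it. They were picked for large ratios, whose sign a floor cannot turn, so this adds little. With the highest probe set per gene, Rps28 and Eif4a1 were read from other probe sets of opposite sign (0.09 and -0.22). Values near the floor carry the least information, and signal over background could not be checked without detection calls.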
